A study of Rattus norvegicus with 18 samples.

Results

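Frat2 encodes a GSK3-binding protein, and its signal was lower on all 6 jejunal arrays of rats given abemaciclib than on any of the 12 other arrays of the study. The share of all genes that separate these arrays in this way was not counted. Mean Frat2 signal was 6.44 with abemaciclib at 36 mg/kg/day and 7.58 at 120 mg/kg/day, against 9.72 with vehicle, on a log2 scale. Frat2 was chosen by this measured fall with abemaciclib against vehicle, largest at 36 mg/kg/day, so its values in any comparison that holds abemaciclib or vehicle arrays are a description without a test. Its paralogue Frat1 and the kinases it binds, Gsk3a and Gsk3b, were added by relation. Probe sets were taken where the platform annotation gave exactly 1 gene symbol equal to a member, which found 3 of the 4 genes, each with 1 probe set, among 14217 genes measured. Frat1 had no such probe set and was listed on 0 of those with several symbols, so it was not analysed here.

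FRAT proteins bind glycogen synthase kinase 3 (GSK3) at the surface that also docks the scaffold Axin. Without a Wnt ligand, Axin holds GSK3 in the destruction complex, where the kinase marks beta-catenin for degradation. FRAT can take GSK3 away from Axin, and it was first described in frog embryos as a GSK3-binding protein and in mouse T cell lymphomas as a gene activated by proviral insertion. Mice that lack all Frat genes are viable and show no overt loss of Wnt signalling. In the small intestine Wnt signalling maintains the dividing crypt cells, and GSK3 also acts in glycogen and insulin signalling.

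The 18 arrays, 3 per group, measured RNA scraped from the mucosa of the jejunum, the middle part of the small intestine, in male Sprague Dawley rats 6 to 8 weeks old. The animals were gavaged daily with abemaciclib at 36 or 120 mg/kg/day, ribociclib at 300 mg/kg/day, palbociclib at 100 or 30 mg/kg/day, or vehicle. Each compound is an inhibitor of CDK4 and CDK6, which let cells leave G1. Vehicle rats received methyl cellulose, as did the palbociclib groups, whereas abemaciclib and ribociclib were dosed in an acidic citrate solution of a different cellulose with Tween. That solution and the compound cannot be told apart where abemaciclib or ribociclib is compared with vehicle or palbociclib. Contrasts among the abemaciclib and ribociclib groups are free of this difference. Dosing lasted 4 or 15 days, and neither the duration nor the animal behind an array is given, so p-values speak to the spread among the arrays alone. The title of abemaciclib 120 replicate B gives a dose of 100, while its treatment label gives 120.

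The tissue label was checked on the arrays with 15 epithelial markers. Fabp1, Fabp2, Vil1, Cdh17 and Epcam, markers of absorptive epithelium, had mean signals above those of over 99.7% of genes. The lowest of the list were Cdx1 (above 64.5% of genes), Cdx2 (89.2%) and then Krt18, and the other 12 lay above at least 96.8%. Array medians lay between 5.41 and 5.51, no pair of arrays was identical, and the number of arrays limits the precision. The deposited log2 signal is already scaled between arrays, and no detection call was used. A signal near the array medians is therefore not shown to be above background. In scrapings of whole mucosa, fewer cells of a type and less RNA per cell cannot be told apart.

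On the GRCr8 assembly Frat2 lies on chromosome 1 from 250603450 to 250605779 on the minus strand, and Frat1 from 250587641 to 250590189 on the plus strand. The 2 genes point towards each other with 13260 bases between them. Gsk3a lies on chromosome 1 from 89943669 to 89953514 and Gsk3b on chromosome 11 from 76004502 to 76154665, both on the minus strand. The 2 promoters below are shown because Frat2 is the gene described and Frat1 is its neighbour and paralogue. Each is 300 bases of RefSeq sequence on GRCr8, from 250 bases before to 50 bases after the gene's start, written on the gene's strand. Capitals mark matches to the motifs searched.

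Frat2, chr1:250605730-250606029, minus strand: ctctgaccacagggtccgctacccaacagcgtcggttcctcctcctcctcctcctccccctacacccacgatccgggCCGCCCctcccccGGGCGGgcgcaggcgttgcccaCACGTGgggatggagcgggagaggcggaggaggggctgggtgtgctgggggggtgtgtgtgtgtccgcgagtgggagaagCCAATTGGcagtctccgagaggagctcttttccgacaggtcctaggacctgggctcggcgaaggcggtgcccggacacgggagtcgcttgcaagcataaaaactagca

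Frat1, chr1:250587391-250587690, plus strand: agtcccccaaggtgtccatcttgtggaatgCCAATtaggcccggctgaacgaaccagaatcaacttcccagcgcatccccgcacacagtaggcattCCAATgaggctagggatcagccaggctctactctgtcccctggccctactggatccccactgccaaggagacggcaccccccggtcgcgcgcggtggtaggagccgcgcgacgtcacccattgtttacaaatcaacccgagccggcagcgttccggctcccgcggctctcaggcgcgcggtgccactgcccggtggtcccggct

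The motifs were the E-box CACGTG, the CCAAT box CCAAT, the GC box GGGCGG, the TATA box TATAAA, the cyclic AMP element TGACGTCA and the TCF/LEF letters CTTTGAT, each on both strands and chosen after the sequence had been seen. The Frat2 window holds the E-box at position -138 from the start, GC boxes at -173 and -160, and a CCAAT box on each strand at -58 and -55, the 2 overlapping. The E-box stands in 6.42% of 33469 rat promoter windows of this length, the CCAAT box in 37.5% and the GC box in 33.1%. The Frat1 window shares only the CCAAT box, at -220 and -154. Neither window holds the TATA box (14.2% of windows), the cyclic AMP element (1.83%) or the TCF/LEF letters (3.63%). Both are rich in G and C, at 67.0% for Frat2 and 64.3% for Frat1. A match describes letters and shows no binding.

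Frat2 signal was 6.21, 6.62 and 6.50 on the arrays of abemaciclib 36 and 7.07, 7.57 and 8.10 on those of abemaciclib 120, against 9.70, 9.73 and 9.74 on the vehicle arrays. All 6 abemaciclib arrays lay below every vehicle array, and the 2 abemaciclib doses did not overlap each other. The arrays of 20.3% of all genes did not overlap between abemaciclib 36 and vehicle, and those of 37.3% between abemaciclib 120 and vehicle. This share was not counted between the 2 abemaciclib doses. Since Frat2 was chosen for its fall with abemaciclib, nothing is read from the lack of overlap in these contrasts.

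With ribociclib Frat2 signal was 8.87, 10.38 and 10.27. With palbociclib 100 it was 9.57, 9.47 and 9.48, and with palbociclib 30 it was 9.71, 9.91 and 10.30. Ribociclib and palbociclib 30 overlapped vehicle, while all 3 palbociclib 100 arrays lay below the lowest vehicle array. In these contrasts 24.4% of genes did not overlap for ribociclib, 19% for palbociclib 100 and 11.2% for palbociclib 30. The ribociclib group had the widest spread of the 6 groups, with replicate A lower than B and C.

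**Figure D1:**
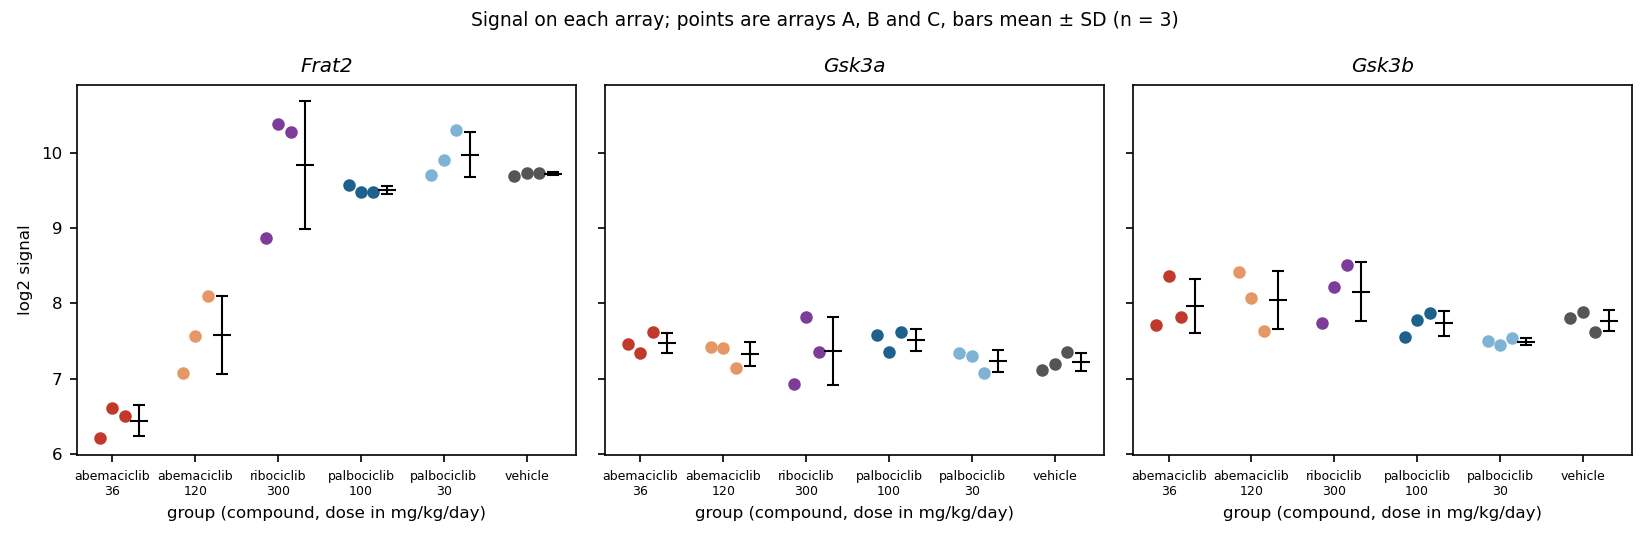
Log2 signal of Frat2, Gsk3a and Gsk3b (vertical axis) on each of the 18 arrays by group (horizontal axis, dose in mg/kg/day), with points for arrays A, B and C and bars for the mean ± SD. The 6 abemaciclib arrays of Frat2 sit between 6.21 and 8.10 and the other 12 between 8.87 and 10.38, while the kinases lie in a band from 6.93 to 8.51.

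Group means of Frat2 were 6.44 ± 0.21 with abemaciclib 36, 7.58 ± 0.51 with abemaciclib 120, 9.84 ± 0.84 with ribociclib, 9.51 ± 0.05 with palbociclib 100, 9.97 ± 0.30 with palbociclib 30 and 9.72 ± 0.02 with vehicle (SD, n = 3 each). From high to low the order was palbociclib 30, ribociclib, vehicle, palbociclib 100, abemaciclib 120, abemaciclib 36. Among the first 3 each overlapped the next, so their ranks are within the spread of the arrays. Vehicle and palbociclib 100, palbociclib 100 and abemaciclib 120, and the 2 abemaciclib doses did not overlap. Between vehicle and palbociclib 100 this held for 19% of all genes, and the share was not counted for the other pairs.

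In the limma model over all arrays the log2 difference of Frat2 from vehicle was -3.28 with abemaciclib 36, a 9.71-fold lower signal, with a 95% interval from -3.98 to -2.58. With abemaciclib 120 it was -2.14, a 4.40-fold lower signal, with an interval from -2.83 to -1.44. Of 14217 genes, 2 had a larger fall than Frat2 at the lower dose and 150 at the higher one. The lower dose carried the larger difference. Frat2 was chosen for its fall, largest at that dose, so nothing is read from these ranks or from the order of the doses. Frat2 averaged 7.58 with abemaciclib 120, against 6.44 with abemaciclib 36, a log2 difference of 1.14 with an interval from 0.44 to 1.84.

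The other compounds gave smaller differences of Frat2 from vehicle, again without a test. With their 95% intervals these were 0.12 with ribociclib (-0.58 to 0.82), -0.21 with palbociclib 100 (-0.91 to 0.48) and 0.25 with palbociclib 30 (-0.44 to 0.95). They share the vehicle arrays with the contrast that chose the gene. The ribociclib value depends on each array of that group, since the difference was 0.60 without replicate A, -0.15 without B and -0.098 without C.

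Against the other compounds, at doses that were not matched, Frat2 was lower with abemaciclib in each of 4 contrasts. The log2 difference was -3.40 for abemaciclib 36 against ribociclib, which shares its vehicle, and -2.26 for abemaciclib 120 against ribociclib. It was -3.53 for abemaciclib 36 against palbociclib 30 and -1.92 for abemaciclib 120 against palbociclib 100. They reuse the abemaciclib arrays for which the gene was chosen.

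In 2 contrasts of Frat2 no abemaciclib or vehicle array took part, and neither passed in limma with Benjamini-Hochberg adjustment over all genes. Frat2 averaged 9.84 with ribociclib, against 9.51 with palbociclib 100, a difference of 0.33 (interval -0.37 to 1.03, adjusted p = 0.716), where the call rate was 0.823% of genes. It averaged 9.51 with palbociclib 100, against 9.97 with palbociclib 30, a difference of -0.47 (interval -1.16 to 0.23, adjusted p = 0.997). In that dose contrast 0% of genes passed, and 619 of 14217 had an unadjusted p under 0.05. The arrays of the 2 palbociclib doses did not overlap, and the share of all genes without overlap was not counted for that contrast. With only the groups compared in limma, the adjusted p was 0.846 for ribociclib against palbociclib 100 and 0.588 for palbociclib 100 against palbociclib 30.

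Gsk3a encodes GSK3 alpha, a kinase best known for inhibiting glycogen synthase. Its signal was 7.46, 7.34 and 7.62 with abemaciclib 36 and 7.42, 7.40 and 7.14 with abemaciclib 120, against 7.11, 7.19 and 7.35 with vehicle. With ribociclib it was 6.93, 7.82 and 7.36, with palbociclib 100 it was 7.58, 7.35 and 7.62, and with palbociclib 30 it was 7.34, 7.31 and 7.07. Vehicle overlapped every group but palbociclib 100, whose lowest array exceeded the highest vehicle array by a margin that vanishes at this rounding. In that contrast 19% of all genes did not overlap.

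Gsk3b encodes GSK3 beta, the form most studied in the beta-catenin destruction complex. Its signal was 7.71, 8.37 and 7.82 with abemaciclib 36 and 8.42, 8.08 and 7.64 with abemaciclib 120, against 7.80, 7.89 and 7.62 with vehicle. With ribociclib it was 7.74, 8.22 and 8.51, with palbociclib 100 it was 7.55, 7.78 and 7.87, and with palbociclib 30 it was 7.49, 7.45 and 7.54. The palbociclib 30 arrays lay below all 3 vehicle arrays, in a contrast where 11.2% of all genes did not overlap. The other groups overlapped vehicle.

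Neither kinase passed the test in any contrast. The log2 difference of Gsk3a from vehicle was 0.25 with abemaciclib 36 (adjusted p = 0.671) and 0.10 with abemaciclib 120 (adjusted p = 0.802) in limma. For Gsk3b it was 0.19 (adjusted p = 0.812) and 0.27 (adjusted p = 0.506). The Gsk3b value with abemaciclib 120 was 0.024 with the RNA quality covariate and 0.087 without abemaciclib 120 replicate A. The differences were 0.15 for Gsk3a and 0.39 for Gsk3b with ribociclib (adjusted p = 0.705 and 0.371), 0.30 and -0.04 with palbociclib 100, and 0.02 and -0.28 with palbociclib 30.

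Over 2 kinases and 12 contrasts, 0 of 24 tests were called in limma and 0 had an unadjusted p under 0.05, the lowest being 0.0634 for Gsk3b between abemaciclib 36 and palbociclib 30. Over the 12 contrasts the outermost bounds of the 95% intervals were -0.63 and 0.73 for Gsk3a and -0.78 and 0.98 for Gsk3b. With 3 arrays against 3 an exact permutation test has a smallest p of 0.1, which Gsk3a reached with palbociclib 100 and Gsk3b with palbociclib 30. That p goes with arrays that do not overlap, as was so for 19% and 11.2% of all genes in these 2 contrasts with vehicle. Background call rates were 2.08% of genes for abemaciclib 36 against vehicle, 18% for abemaciclib 120, 3.73% for ribociclib and 0% for either palbociclib dose. They were 7.59% for abemaciclib 120 against abemaciclib 36, 0.38% for abemaciclib 36 and 27.2% for abemaciclib 120 against ribociclib, 18.3% for abemaciclib 120 against palbociclib 100 and 1.24% for abemaciclib 36 against palbociclib 30. Across the 18 arrays Pearson's r with Frat2 was -0.13 for Gsk3a and -0.25 for Gsk3b, as a description.

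**Figure D2:**
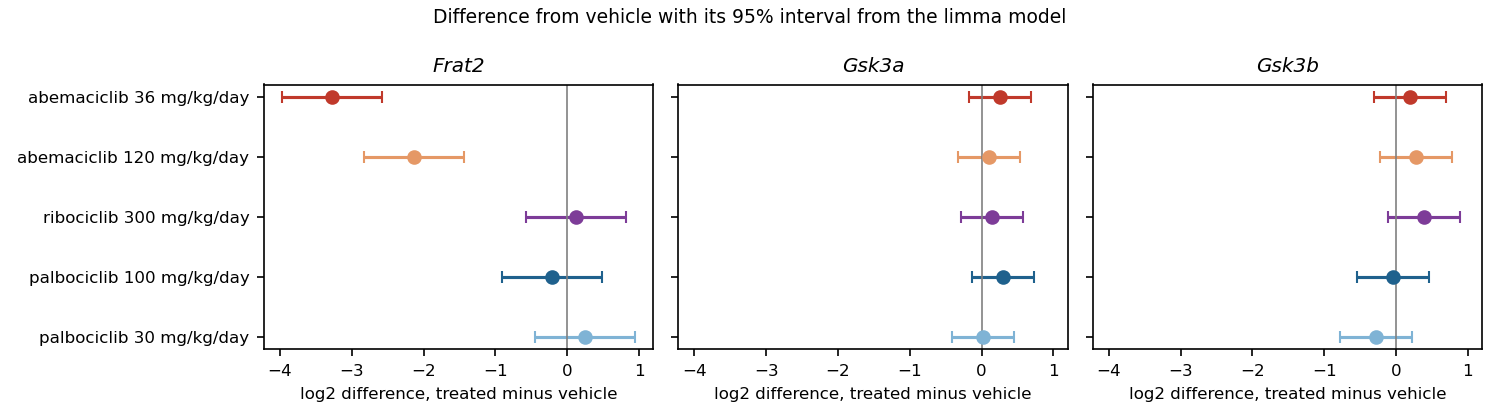
Log2 difference from vehicle (horizontal axis) of Frat2, Gsk3a and Gsk3b for the 5 treated groups (vertical axis), with the limma estimate as a point and its 95% interval as a bar. Frat2 lies at -3.28 and -2.14 with abemaciclib and between -0.21 and 0.25 with the other compounds, and the kinase intervals include 0.

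The genes whose signal ran most like Frat2 were Stk17b, a kinase known from T cell activation and apoptosis (r = 0.91), Ppm1d, a phosphatase of the p53 and DNA damage response (0.91), and Depdc7 (0.90). Next came Lnx2, a ubiquitin ligase that binds Numb (0.90), Efna1, the membrane ligand ephrin-A1 (0.89), and Bet1l, a SNARE of the Golgi (0.89). Most opposite were Haus6, part of the augmin complex that nucleates spindle microtubules (r = -0.93), Nup107 of the nuclear pore (-0.90), Cox18, which inserts a cytochrome oxidase subunit into the mitochondrial membrane (-0.90), and the RNA-binding protein Pcbp2 (-0.89). These are Pearson correlations over the 18 arrays among 13979 genes with a symbol that is no placeholder, given without a p. The arrays share groups, so a gene that differs with abemaciclib ranks high whatever it does within groups.

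With either abemaciclib dose the 6 genes most like Frat2 differed less from vehicle than Frat2 did. Efna1 averaged 8.50 ± 0.59 with abemaciclib 36 and 8.74 ± 0.52 with abemaciclib 120, against 10.37 ± 0.16 with vehicle. Stk17b averaged 10.71 ± 0.33 and 10.56 ± 0.40 with the same 2 doses, against 11.97 ± 0.19 with vehicle. Lnx2 had the smallest differences of the 6, at -0.67 with abemaciclib 36 and -0.60 with abemaciclib 120. Between abemaciclib 120 and abemaciclib 36 the log2 differences of these genes lay between -0.14 for Stk17b and 0.24 for Efna1, while that of Frat2 was 1.14. Frat2 was chosen for its fall, largest at 36 mg/kg/day, so nothing is read from its larger differences.

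Haus6 had the opposite pattern. It averaged 7.76 ± 0.76 with abemaciclib 36 and 7.49 ± 0.71 with abemaciclib 120, against 5.13 ± 0.11 with vehicle, which lies below the array medians. Nup107 averaged 8.00 ± 0.43 and 8.09 ± 0.39 with these doses, against 6.36 ± 0.08 with vehicle. These differences follow from how the genes were picked and were not tested.

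Likeness within groups was weaker and uneven. After group means were removed, r with Frat2 was 0.87 for Depdc7, 0.79 for Stk17b, 0.72 for Ppm1d, 0.64 for Bet1l, 0.57 for Lnx2 and 0.31 for Efna1. Frat2 varied most within the ribociclib group (SD 0.84), where replicate A was lowest. In that group replicate A was also lowest for these genes but Bet1l, and highest for the opposite genes. The within-group r without this array was not computed. Over the 6 abemaciclib arrays alone, with both doses together and group means kept, r with Frat2 was 0.73 for Ppm1d and 0.19 for Lnx2. Pcbp2, opposite to Frat2 over all arrays, had r = 0.25 there, a value that includes the difference between the doses. After group means were removed the opposite genes kept their sign, at -0.65 for Pcbp2, -0.51 for Haus6, -0.75 for Nup107 and -0.74 for Cox18. Of the 6 genes most like Frat2, 5 had a RefSeq promoter window. Of these 5 held the GC box, 3 the CCAAT box and 1 the E-box shown above for Frat2.

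**Figure D3:**
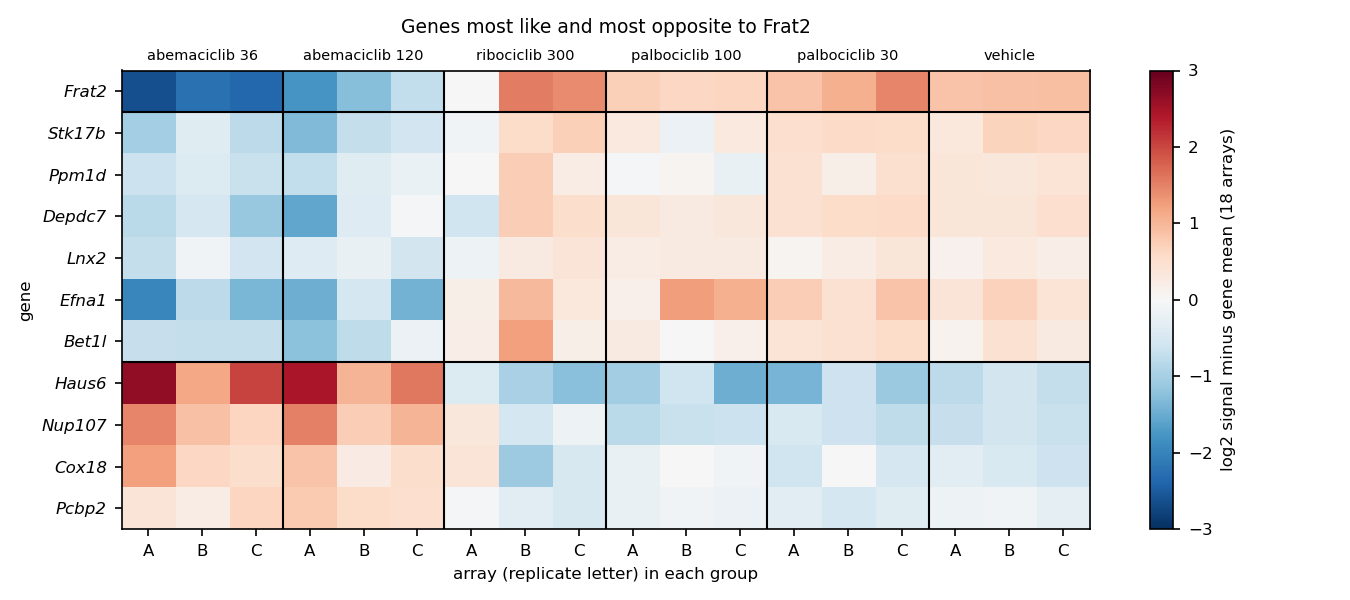
Log2 signal minus each gene's mean over 18 arrays (colour, blue lower and red higher) for Frat2, the 6 genes most like it and the 4 most opposite (rows), on each array by group (columns). Frat2 ranges from -2.63 on abemaciclib 36 replicate A to 1.53 on ribociclib replicate B, and Haus6 is higher on all 6 abemaciclib arrays than on the other 12.

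Genes around FRAT and GSK3 were counted from lists drawn up from textbook knowledge, with earlier results of these data known. The counts are therefore a description and no independent support. The call rates they are read against differ by direction. With abemaciclib 36, 0.499% of genes were higher than vehicle and 1.58% lower. With abemaciclib 120, 9.6% were higher and 8.41% lower, and with ribociclib 0.999% were higher and 2.74% lower. The median difference over all genes was 0.01, -0.02 and 0.00 in these 3 contrasts. With palbociclib 100 and palbociclib 30 each list had 0 calls in limma, where 1023 and 357 of all genes had an unadjusted p under 0.05.

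Among Wnt receptors and ligand modulators, 25 of 31 listed genes were measured. The count was 0 higher and 2 lower with abemaciclib 36, 1 and 2 with abemaciclib 120, and 1 and 2 with ribociclib, with medians of 0.04, -0.01 and 0.08. The receptor Fzd8 averaged 4.59 with abemaciclib 36, 4.65 with abemaciclib 120 and 4.53 with ribociclib, against 6.10 with vehicle (adjusted p = 0.0364, 0.00949 and 0.0245 in limma). Fzd4, the receptor for norrin as well as for Wnts, was lower in the same 3 contrasts with differences of -0.78, -0.86 and -0.79, all at means under the array medians. Fzd6 rose with abemaciclib 120, at 7.01 against 5.19 with vehicle (adjusted p = 0.000255). Wnt5a, a ligand of the non-canonical branch, was 0.30 higher with ribociclib at a signal of 3.83 against 3.53 with vehicle, both below the array medians. The coreceptor Lrp6 had differences of 0.47, 0.01 and 0.46 in the 3 contrasts and did not pass. The Fzd6 call was kept in all alternatives run, and that of Fzd8 with abemaciclib 120 was lost without vehicle replicate A (adjusted p = 0.0556), that of Fzd4 with the RNA quality covariate (0.0518). The calls of Fzd8 and Fzd4 with abemaciclib 36 were lost with arrays centred on their medians, with only the groups compared, and without vehicle replicates A or C or any array of that dose (7 of 15 and 11 of 14 alternatives in all, highest 0.144 and 0.241). The 3 calls with ribociclib were lost with only the groups compared and without any of vehicle replicates A and C and ribociclib replicate C (highest 0.111, 0.157 and 0.13).

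The destruction complex and Dishevelled list, which includes Axin1, had 24 of 26 genes measured. With abemaciclib 36, 0 were higher and 1 lower, with abemaciclib 120, 0 and 3, and with ribociclib 0 and 1, with medians of -0.16, -0.11 and -0.09. Csnk1g3, a casein kinase that phosphorylates the Wnt coreceptor, averaged 9.28 with abemaciclib 36 and 9.07 with ribociclib, against 10.25 with vehicle (adjusted p = 0.024 and 0.00715 in limma). With abemaciclib 120 the genes that fell were Btrc, the ubiquitin ligase receptor for beta-catenin (-0.76, adjusted p = 0.00164), the phosphatase subunit Ppp2r5c (-0.71) and Rnf146, which tags Axin for degradation (-0.62). The scaffold Axin1 had differences of -0.27, -0.19 and -0.27 and did not pass, nor did Apc (-0.16, -0.07 and 0.07). Beta-catenin itself, Ctnnb1, had differences of -0.05, -0.18 and 0.00, and Dishevelled 2, Dvl2, of 0.00, 0.04 and 0.11. The Btrc call was kept in all alternatives run, while those of Csnk1g3 and Ppp2r5c were lost when all probe sets of a gene were averaged (highest 0.238). The Csnk1g3 call with ribociclib was also lost with only the groups compared, that with abemaciclib 36 without any 1 vehicle array or replicate A, and that of Rnf146 with the RNA quality covariate and without vehicle replicates B or C or abemaciclib 120 replicate A (highest 0.107).

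Of 16 listed genes of the Wnt transcription complex 15 were measured, and 1 was called, the corepressor Tle1, which was 1.41 higher with abemaciclib 120, at 6.40 against 4.99 with vehicle (adjusted p = 0.00112 in limma). Its medians were -0.04, -0.02 and 0.00, and 4, 4 and 2 of its genes had an unadjusted p under 0.05 with abemaciclib 36, abemaciclib 120 and ribociclib. The TCF factor Tcf7l2 had differences of -0.12, -0.02 and 0.37 and did not pass.

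Wnt target and feedback genes rose with abemaciclib 120, in 11 of 17 measured genes of 23 listed, with 0 lower and a median of 0.70. With abemaciclib 36 the count was 1 higher and 0 lower with a median of 0.30, and with ribociclib 1 and 0 with a median of 0.07. Axin2, an inducible Axin that feeds back on the pathway, had 7.77, 8.25 and 8.04 with abemaciclib 36 and 8.58, 8.51 and 7.25 with abemaciclib 120, against 6.60, 6.24 and 6.34 with vehicle. Its differences were 1.63 (adjusted p = 0.024) and 1.72 (adjusted p = 0.00274) in limma. All 6 abemaciclib arrays of Axin2 lay above the vehicle arrays, the reverse of Frat2, with means of 8.11 with abemaciclib 120 and 8.02 with abemaciclib 36. Of all genes, 20.3% did not overlap vehicle with abemaciclib 36 and 37.3% with abemaciclib 120. The Axin2 call with abemaciclib 36 was lost without any 1 array of that group or vehicle but abemaciclib 36 replicate B (highest adjusted p = 0.113 in limma).

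Smoc2, which marks stem cells of the crypt base, had 9.73, 9.10 and 8.76 with abemaciclib 120, against 4.92, 6.09 and 4.47 with vehicle, a difference of 4.03 (adjusted p = 0.000272 in limma) with a vehicle mean of 5.16, below the array medians. Myc rose by 2.64, with a vehicle mean of 5.20 that is also below them, and the cyclin gene Ccnd1 by 2.34 at that dose, where the stem cell receptor Lgr5 rose by 0.70 at a signal of 4.59 against 3.89 with vehicle. Znrf3, a ubiquitin ligase that removes Wnt receptors, averaged 4.54 with abemaciclib 120, against 3.61 with vehicle (adjusted p = 0.00298 in limma). Both means of Lgr5 and Znrf3 lie below the array medians, so they are not shown to be above background. With abemaciclib 36, where Frat2 was lowest, Smoc2 had 6.90, 6.03 and 7.64 and Myc 5.19, 4.91 and 7.08, and neither passed. Ets2 was the gene called with ribociclib (1.07, adjusted p = 0.0162), a call lost with only the groups compared and without vehicle replicates B or C. With dim genes left out 7 genes of the list were higher with abemaciclib 120, and the calls of Axin2, Smoc2, Myc, Ccnd1, Lgr5 and Znrf3 at that dose were kept wherever these genes were fitted.

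Kinases that phosphorylate GSK3, and other GSK3-binding proteins, had 16 of 20 genes measured. With abemaciclib 36, 0 were higher and 1 lower, with abemaciclib 120, 0 and 4, and with ribociclib 0 and 1, with medians of -0.12, -0.33 and -0.36. Sgk1, a kinase that can inhibit GSK3 by phosphorylation, had 9.23, 11.87 and 9.93 with abemaciclib 36 and 10.99, 12.08 and 11.75 with abemaciclib 120, against 13.01, 12.78 and 13.16 with vehicle. Its differences were -2.64 (adjusted p = 0.0102) and -1.37 (adjusted p = 0.0538) in limma. As in Frat2 all 6 abemaciclib arrays lay below vehicle and the lower dose had the lower mean, but replicate B of abemaciclib 36 stood near the arrays of abemaciclib 120. Of all genes, 20.3% did not overlap vehicle with abemaciclib 36 and 37.3% with abemaciclib 120. The palbociclib 100 arrays of Sgk1 (12.52, 11.81 and 12.31) also lay below vehicle, in a contrast where 19% of genes did not overlap. The related Sgk3 fell with ribociclib, to 7.07 against 8.88 with vehicle (adjusted p = 0.0081). The Sgk1 call was lost without abemaciclib 36 replicate A or vehicle replicate C, and both calls with only the groups compared (0.0847 and 0.0895).

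Gskip, another small protein that binds GSK3 and anchors it to protein kinase A, had 7.49, 7.73 and 8.07 with abemaciclib 120, against 8.67, 8.68 and 8.66 with vehicle (adjusted p = 0.00882 in limma). With abemaciclib 36 it had 7.95, 8.19 and 7.75 and did not pass. The other genes lower with abemaciclib 120 were the adhesion-linked kinase Ilk (-0.61), the protein kinase A subunit Prkacb (-0.70) and Ppp1r2, a phosphatase inhibitor that GSK3 phosphorylates (-0.51, adjusted p = 0.044 in limma). Ppp1r2 averaged 11.46 with abemaciclib 120, 11.49 with palbociclib 100 and 11.50 with ribociclib, against 11.97 with vehicle. For Prkacb the means were 8.78, 9.22 and 8.87, against 9.48, and for Ilk 9.43, 9.99 and 9.83, against 10.04. Only those with abemaciclib 120 passed. Akt1, the main insulin-dependent kinase of GSK3, had differences of 0.10, 0.58 and -0.14 and did not pass. Without abemaciclib 120 replicate A, 0 of the 16 genes were called lower in limma (Gskip 0.0574), and the calls of Ilk, Prkacb and Ppp1r2 were also lost without vehicle replicate C (lost in 2, 5 and 8 of 15 alternatives).

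GSK3 substrates had 27 of 28 genes measured. With abemaciclib 36, 0 were higher and 0 lower in limma, with 5 at an unadjusted p under 0.05. With abemaciclib 120, 1 was higher and 2 lower, and with ribociclib 0 and 1, with medians of 0.12, 0.11 and -0.06. The clock gene Per2 was 0.59 higher with abemaciclib 120, while the transcription factor Nfatc1 (-0.79) and the cytoskeletal Crmp1 (-0.52, at means below the array medians) were lower. Per2 averaged 7.91 with abemaciclib 120, 7.69 with abemaciclib 36, 7.86 with ribociclib, 7.99 with palbociclib 100 and 7.63 with palbociclib 30. All lay above the vehicle mean of 7.33, and only abemaciclib 120 passed. Eif2b5, the catalytic subunit of a translation initiation factor, had -0.79 with ribociclib. Glycogen synthase, Gys1, the substrate that named the kinase, had differences of 0.14, 0.19 and -0.24 and did not pass. The Crmp1 call was kept in the 14 alternatives in which the gene was fitted, that of Nfatc1 was lost without vehicle replicate C (0.0689), and those of Per2 and Eif2b5 were lost in 11 and 10 of 15 alternatives (highest 0.222 and 0.17).

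**Figure D4:**
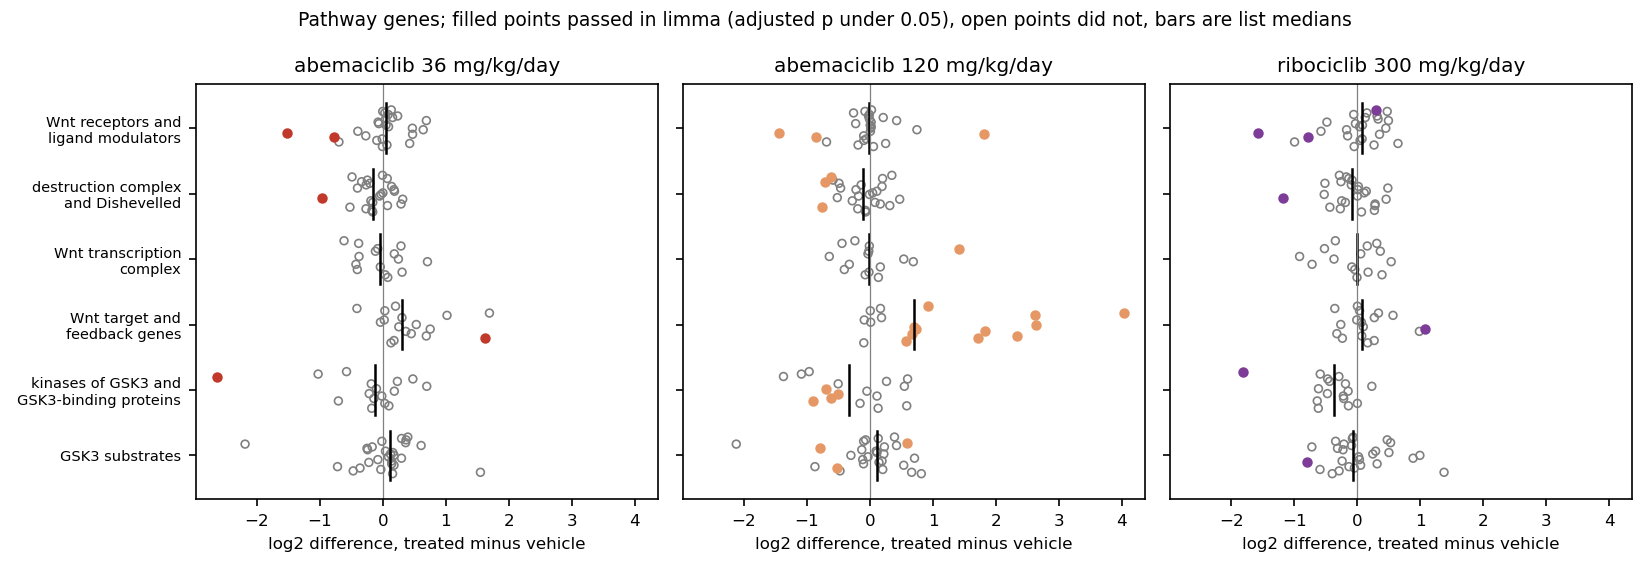
Log2 difference from vehicle (horizontal axis) of each measured gene of the 6 pathway lists (vertical axis) for abemaciclib 36, abemaciclib 120 and ribociclib 300 mg/kg/day. Filled points passed in limma, open points did not, and the bars are list medians, of which that of Wnt target and feedback genes with abemaciclib 120 lies at 0.70.

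Markers of other cells moved with some of these groups. Over all genes 1.58% were called lower with abemaciclib 36, 8.41% with abemaciclib 120 and 2.74% with ribociclib. Called higher were 0.499% with abemaciclib 36 and 9.6% with abemaciclib 120. T and NK cell markers were lower in 5 of 12 genes with abemaciclib 36 and 10 of 12 with abemaciclib 120, with summed log2 signals of 10.7 to 10.8 and 9.34 to 10.1, against 11.8 to 12.1 with vehicle. They were also lower in 5 of 12 with ribociclib (summed signal 9.99 to 11.6) and had a median difference of -1.10 with palbociclib 100, where 0 of 12 passed in limma and 7 had an unadjusted p under 0.05. In those groups the Frat2 differences were 0.12 and -0.21, and a link between these markers and Frat2 was not tested. Cell division markers were higher in 10 of 12 genes with abemaciclib 120 (summed signal 12.5 to 13.1) and in 0 of 12 with abemaciclib 36 (10.3 to 11.7), against 10.6 to 11.1 with vehicle. In limma, 0 of the 12 had an unadjusted p under 0.05 with abemaciclib 36.

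Epithelial markers, 15 of 16 measured, summed to between 16.9 and 17.1 in every group, a sum in which the brightest markers weigh most. Of these genes 0 were called with either abemaciclib dose, where 3 and 4 had an unadjusted p under 0.05, and 1 was called lower with ribociclib. Single markers differed from vehicle by -0.98 to 0.21 with abemaciclib 36 and by -1.77 to 1.13 with abemaciclib 120. Smooth muscle and stromal markers had 0 of 12 called with either abemaciclib dose (0 and 0 at an unadjusted p under 0.05), with summed signals of 10.1 to 11.8 with abemaciclib 36 and 9.41 to 11.9 with abemaciclib 120, against 10.4 to 11.1 with vehicle. Macrophage and B cell markers summed to between 9.51 and 10.3 with abemaciclib 36 and between 7.60 and 8.48 with abemaciclib 120, against 8.95 to 9.66 with vehicle, with the higher dose below all vehicle arrays and the lower dose partly above them. Of the 8 genes 2 were called lower with abemaciclib 120, where 8.41% of all genes were. With abemaciclib 36, 0 of the 8 were called in limma, with 2 at an unadjusted p under 0.05 and a median difference of 0.32. A measure of RNA degradation, the excess of the 3′ over the 5′ actin control signal on the log2 scale, was 0.53, 0.62 and 0.80 with abemaciclib 36 and 1.05, 0.91 and 0.86 with abemaciclib 120, against 0.65, 0.79 and 0.57 with vehicle. With it as a covariate the Frat2 differences were -3.26 with abemaciclib 36 and -2.32 with abemaciclib 120. The part of the cell markers in the Frat2 values was not tested.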

How the data were processed

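The authors deposited log2 values, 1 per probe set and array, for 18 Affymetrix rat arrays in 6 groups of 3, between 2.86 and 14.34, with array medians from 5.41 to 5.51. The submitters' processing notes name Affymetrix Expression Console, Transcriptome Analysis Console and RMA, with no version given in the sources used here. RMA as usually run equalises signal between arrays, so a change in total RNA per cell would not show. Of 31099 probe sets, 57 were controls, 20826 had 1 symbol, 436 several and 9780 none, and 20758 matched RefSeq by Entrez identifier with 0 symbols changed. Each gene was represented by its probe set with the highest mean, giving 14217 genes, and 4525 genes had several.

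Groups came from the treatment label. A model with 1 mean per group over all arrays was fitted with limma 3.58.1 in R 4.3.3 (lmFit, eBayes with trend, 12 residual degrees of freedom), two-sided, with Benjamini-Hochberg adjustment over all genes of a comparison and a threshold of 0.05. This step was tested on simulated data with 200 changed genes. Python 3.11.15, pandas 2.3.3, numpy 2.4.6, scipy 1.17.1 and matplotlib 3.10.9 did the rest.

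The members and lists were chosen with earlier results of these data known, and no list was tested as a set. Named were the 4 members, the 6 genes with the highest and the 4 with the lowest correlation with Frat2, a fixed set of GSK3 and Wnt genes, and up to 4 called genes with the smallest p per list and contrast. The alternatives were 2 scalings, dim genes (below the 30th percentile) left out, mean or separate probe sets, no trend, only the groups compared, an RNA quality covariate, a replicate block and leaving out each array in turn.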

Additional observations from a re-analysis of the deposited data

How the results depend on the processing

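Over 12 contrasts of each measured member, 511 values under the alternatives kept direction and side of the threshold or, for Frat2 differences without a test, moved by less than its pooled within-group SD (0.431). Of the rest 26 kinase differences reversed and 3 of Frat2 moved further. With 1 probe set per member and equal groups, averaging or separating probe sets, leaving out dim genes, the trend, the groups fitted and the block cannot move a difference. The Frat2 differences from vehicle lay between -3.37 and -3.16 with abemaciclib 36 and between -2.40 and -1.88 with abemaciclib 120 when each array was left out in turn, and between -3.26 and -3.21 and between -2.32 and -2.24 with the 2 scalings and the RNA quality covariate. The 3 that moved were all without ribociclib replicate A, with leave-one-out ranges from -0.15 to 0.60 for ribociclib against vehicle, whose sign turned without replicates B or C, from -3.88 to -3.13 for abemaciclib 36 against ribociclib and from -2.74 to -1.98 for abemaciclib 120 against ribociclib.

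The 26 kinase differences had not been called, and 0 of 360 alternative limma fits of the kinases called one (lowest adjusted p = 0.132). With quantile re-normalization the difference was -0.0113 for Gsk3a between abemaciclib 120 and vehicle, -0.0203 for Gsk3a between abemaciclib 36 and ribociclib, 0.0933 for Gsk3b between palbociclib 100 and vehicle and -0.0901 for Gsk3b between abemaciclib 120 and abemaciclib 36. With arrays centred on their medians it was -0.00434, 0.0757 and -0.099 in these contrasts but that of abemaciclib 36 against ribociclib. With the RNA quality covariate it was 0.0107 for Gsk3a between abemaciclib 120 and ribociclib, and for Gsk3b 0.0256 between palbociclib 100 and vehicle, -0.191 between abemaciclib 120 and abemaciclib 36 and -0.00133 between abemaciclib 120 and palbociclib 100.

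Leaving out 1 array gave Gsk3a ranges from -0.0767 to 0.371 for ribociclib against vehicle, from -0.0312 to 0.105 for palbociclib 30 against vehicle, from -0.116 to 0.332 for abemaciclib 36 against ribociclib, from -0.267 to 0.18 for abemaciclib 120 against ribociclib and from -0.375 to 0.0724 for ribociclib against palbociclib 100. For Gsk3b it gave -0.00708 to 0.321 for abemaciclib 36 against vehicle, -0.112 to 0.0531 for palbociclib 100 against vehicle, -0.108 to 0.282 for abemaciclib 120 against abemaciclib 36 and -0.318 to 0.0913 for abemaciclib 120 against ribociclib. The cause was not tested.

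Centring moved the median difference of all genes by over 0.1 in several contrasts, to -0.13 with abemaciclib 120 and 0.18 with ribociclib against vehicle and to -0.33 for abemaciclib 120 against ribociclib, against which the centred values are to be read. With it the list medians with ribociclib that changed sign were 0.09 for the destruction complex, 0.17 for the transcription complex and 0.11 for GSK3 substrates, and with abemaciclib 36 0.03 for the transcription complex (quantile re-normalization turned that with ribociclib to 0.06). Of 36 list counts, 25 moved by more than 1.5 times in at least 1 fit. The count of genes called with abemaciclib 36 was 296, from 46 without its replicate A to 531 without its replicate B, and with ribociclib 531, from 29 with only the groups compared to 1317 without ribociclib replicate A. With abemaciclib 120 it was 2560, with 1349 without its replicate A, 1596 with the RNA quality covariate and 1473 without vehicle replicate C.

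Letters A to C were not taken as pairs, since correlations of same-letter arrays with vehicle lay between -0.31 and 0.36, though 12 of 18 arrays correlated best with their own letter, a hint from the data only. With the replicate block the Frat2 difference from vehicle with abemaciclib 36 was -3.28, and 400, 2717 and 660 genes were called with abemaciclib 36, abemaciclib 120 and ribociclib.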
